A study of Mus musculus with 4 samples.

Results

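The receptors that guide T cells through lymphoid organs were read in sorted follicular helper CD4+ T (TFH) cells with and without Rictor. The 7 genes described are *Cxcr5*, *Cxcr4*, *Ccr7*, *Ccr6*, *S1pr1*, *S1pr2* and *Gpr183*, chosen by name for their role in positioning. They comprise every probe set of the array whose annotated symbol is exactly one of those names, 9 of 45037 probe sets and 7 of the 18193 genes that a probe set named alone, and no probe set shared a member's symbol with another gene. The brightest probe set by mean over the arrays stood for a gene, and the dimmer probe sets of *S1pr2* and *Gpr183* are given beside it.

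The 4 Affymetrix mouse arrays measured RNA of TFH cells sorted from spleen on day 8 of an infection with LCMV Armstrong, a strain of lymphocytic choriomeningitis virus that is cleared after an acute phase. The 2 Rictor-null arrays came from mice with floxed *Rictor* alleles and a *Cd4*-Cre transgene, and the 2 WT arrays from littermates that carried the floxed alleles without Cre. All mice were infected as young adults, and each array was made from cells pooled from several mice. *Cd4*-Cre is active from the thymus onward, so that CD8+ and other CD4+ T cells of the Rictor-null mice lacked the gene as well. Rictor is the subunit that defines mTOR complex 2 (mTORC2), a kinase complex that phosphorylates AKT. TFH cells were recognised in the study as CD44hi cells with CXCR5 on their surface, in some experiments also low in the surface protein GITR. For the sort of the arrays it refers to an earlier description. Both groups were thus taken for the protein of one of the genes described here.

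Homing receptors are G protein-coupled receptors that read gradients of chemokines, oxysterols or sphingosine 1-phosphate (S1P). CCR7 holds T cells in the T cell zone, CXCR5 draws them toward CXCL13 in the B cell follicle, and GPR183 (EBI2) leads them to oxysterols at the follicle's outer edge. CXCR4 responds to CXCL12 of the germinal center dark zone, CCR6 responds to CCL20, S1PR1 takes cells out of lymphoid organs toward S1P in blood and lymph, and S1PR2 keeps TFH cells inside the germinal center.

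In Rictor-null TFH cells *Cxcr5*, *Cxcr4* and *Ccr6* were lower and *Gpr183* was slightly higher, while *Ccr7*, *S1pr1* and *S1pr2* did not pass the test. Of the 7 genes, 3 were thus called lower (42.9%) and 1 higher (14.3%) at an adjusted p under 0.05 by limma. Beside them, 7.19% of all 18193 genes were called lower and 12.5% higher, so that the higher share is near the background. All genes include many dim ones, while all 7 receptors lay above the median of all probe sets. With genes under that median left out, 1490 of 10696 genes were called lower and 2484 higher, beside 3 and 2 of the 7 receptors. The median log2 fold change of the 7 genes, Rictor-null over WT, was -0.15, and that of all genes was 0.0068. At least a 1.5-fold fall with a call was seen in 2 of the 7 (*Cxcr5* and *Ccr6*) and in 0.357% of all genes, and such a rise in 0 of the 7 and in 1.27% of all genes. The arrays of one group lay wholly to one side of the other group's in 5 of the 7 genes, and in 55.5% of all genes, so that count is close to the background. Fold changes are differences of mean log2(intensity + 16), a scale that understates the change of dim genes, and since these are pooled cells, fewer cells of a type and less RNA per cell cannot be told apart.

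**Figure D1:**
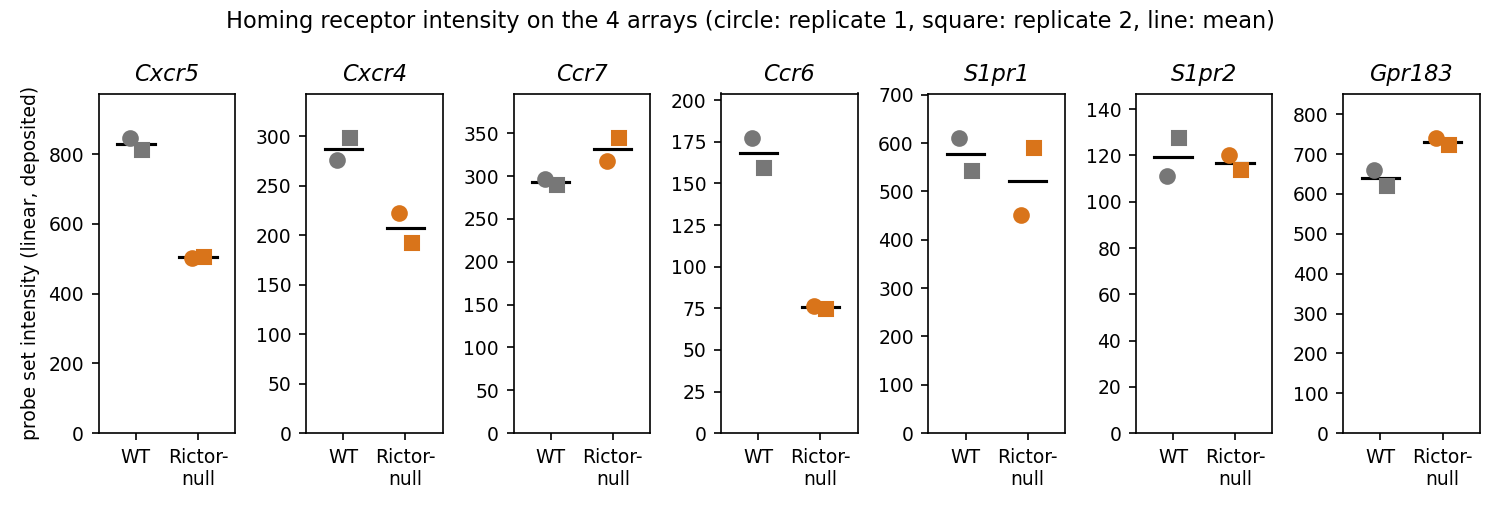
Deposited array intensity (linear, arbitrary units, vertical axes starting at 0) of the brightest probe set of each of the 7 receptors on the 2 Rictor-null and the 2 WT arrays, with a circle for replicate 1, a square for replicate 2 and a line at each group's mean. The Rictor-null points lie below both WT points for *Cxcr5*, *Cxcr4* and *Ccr6* and above them for *Ccr7* and *Gpr183*. For *S1pr1* and *S1pr2* the groups overlap.

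*Cxcr5*, the follicle receptor that defines TFH cells, had intensities of 503 and 505 on the Rictor-null arrays and 847 and 812 on the WT arrays. The Rictor-null arrays were nearly equal, and both lay well below the WT arrays. Its log2 fold change was -0.70 (SE 0.05, 95% interval -0.81 to -0.59, adjusted p = 2.20e-06 from limma), a level 1.62-fold higher in WT. By size this was the 34th fall among all genes on the array. *Cxcr5* has 1 probe set here. It kept its call in 13 of 14 tested alternatives, with log2 fold changes from -0.73 to -0.67 over all of them. The difference stood between cells already gated on CXCR5 protein, and the part of the gate in it was not tested.

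*Ccr6*, the receptor for CCL20, fell the most of the 7. Its intensities were 76.5 and 74.7 on the Rictor-null arrays and 177 and 159 on the WT arrays, so that both WT values were more than double either Rictor-null value. The log2 fold change was -1.01 (SE 0.08, 95% interval -1.17 to -0.84, adjusted p = 3.67e-06 from limma), or 2.01-fold, the 9th largest fall among all genes. Taken from the linear group means, 75.6 ± 1.29 (SD, n = 2) in Rictor-null and 168 ± 12.8 (SD, n = 2) in WT, the WT level was 2.23-fold that of Rictor-null cells. The call held in 13 of 14 tested alternatives.

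*Cxcr4*, the receptor for CXCL12, had intensities of 223 and 192 on the Rictor-null arrays and 276 and 299 on the WT arrays. The groups did not overlap, and both Rictor-null values were lower. The log2 fold change was -0.44 (SE 0.07, 95% interval -0.60 to -0.28, adjusted p = 0.00100 from limma), or 1.36-fold, the 163rd fall by size. Without WT replicate 2 it was -0.39 and missed the threshold (adjusted p = 0.0795 from limma), while without each of the other arrays it kept its call.

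The reference promoters of 4 of the 7 genes (*Cxcr4*, *Ccr6*, *S1pr2* and *Gpr183*) were matched in RefSeq, build GRCm38.p6, as windows of 250 bases before and 50 after the start site, and *Ccr6* had 2 such windows. *Cxcr5*, *Ccr7* and *S1pr1* are named only. The windows of 2 receptor genes that fell are printed to show what lies before genes that moved in the same direction. The *Cxcr4* window lies at chr1:128592250-128592549 on the minus strand and the *Ccr6* window at chr17:8235793-8236092 on the plus strand, both written 5′ to 3′ along the gene, and capitals mark the CACCC letters bound by KLF factors.
Cxcr4 promoter: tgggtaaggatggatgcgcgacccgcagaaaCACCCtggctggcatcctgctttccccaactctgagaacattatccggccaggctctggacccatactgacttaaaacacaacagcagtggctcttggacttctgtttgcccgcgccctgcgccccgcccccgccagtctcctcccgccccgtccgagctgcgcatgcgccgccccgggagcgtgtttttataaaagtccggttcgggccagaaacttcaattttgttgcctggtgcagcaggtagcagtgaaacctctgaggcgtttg
Ccr6 promoter: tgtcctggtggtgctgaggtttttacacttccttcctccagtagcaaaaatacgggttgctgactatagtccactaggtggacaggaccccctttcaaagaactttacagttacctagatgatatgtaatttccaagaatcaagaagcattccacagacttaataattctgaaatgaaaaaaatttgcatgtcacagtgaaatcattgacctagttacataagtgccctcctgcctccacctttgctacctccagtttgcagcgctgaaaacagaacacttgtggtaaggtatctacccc
The sequences differ in makeup, with 59.3% G and C and 20 CpG dinucleotides in the *Cxcr4* window and 42.3% and 2 in the printed *Ccr6* window. The other *Ccr6* window, not printed, has 47.7% and 10. Both strands of all 5 windows were searched for CAGCTG (an E-box of the kind bound by ASCL2), GTAAACA (the FOXO motif) and CACCC (KLF). The only matches were CACCC at -219 from the start site in *Cxcr4*, on the strand shown, and CACCC at -98 on the opposite strand in *S1pr2*, and no matches overlapped. Of 32851 promoters of the same length, 57.5% hold CACCC or its reverse complement, 16.3% CAGCTG and 3.65% GTAAACA or its reverse complement. A match describes letters in a window, not a bound site, and no match says nothing of the factor.

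*Gpr183*, the oxysterol receptor, was the only one of the 7 called higher. Its brightest probe set gave 741 and 722 on the Rictor-null arrays and 661 and 621 on the WT arrays. The gap between the groups was wider than the spread within either. The log2 fold change was 0.19 (SE 0.05, 95% interval 0.08 to 0.30, adjusted p = 0.0215 from limma). The dimmer probe set gave 205 and 201 against 192 and 196, a log2 fold change of 0.06 (SE 0.06, adjusted p = 0.652 from limma over all probe sets). The call is therefore that of 1 probe set, and it held in 7 of 15 tested alternatives. It was lost without Rictor-null replicate 1 (adjusted p = 0.0878), without WT replicate 1 (adjusted p = 0.0779), without WT replicate 2 (adjusted p = 0.222, all from limma) and when its probe sets were averaged (log2 fold change 0.12, adjusted p = 0.112 from limma).

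*Ccr7*, the T cell zone receptor, had intensities of 318 and 345 on the Rictor-null arrays and 296 and 289 on the WT arrays. Both Rictor-null values were above both WT values. The log2 fold change of 0.17 (SE 0.06, 95% interval 0.04 to 0.30) missed the threshold (adjusted p = 0.0739 from limma). It passed without Rictor-null replicate 1 (0.22, adjusted p = 0.0428 from limma) and when genes under the median of all probe sets were left out of the adjustment (adjusted p = 0.0475 from limma). *Ccr7* was thus near the threshold on either side and its direction was the same in all 15 alternatives.

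*S1pr1*, the exit receptor, was the member whose Rictor-null arrays differed the most. They read 452 and 589, on either side of the WT value of 542 and below the other WT value of 611, so that the groups overlapped. The log2 fold change of -0.15 (SE 0.10, 95% interval -0.36 to 0.06) did not pass (adjusted p = 0.336 from limma). A single array decided the value. Without Rictor-null replicate 2 it was -0.34 and passed (adjusted p = 0.00502 from limma), and without Rictor-null replicate 1 it was 0.03.

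*S1pr2*, the receptor that confines cells to the germinal center, gave an answer that depended on the probe set. The brightest read 120 and 114 on the Rictor-null arrays and 111 and 128 on the WT arrays, with the Rictor-null values inside the WT range, a log2 fold change of -0.025 (SE 0.08, 95% interval -0.20 to 0.15, adjusted p = 0.890 from limma). Its name carries the manufacturer's suffix for probes that may also bind other transcripts. The dimmer probe set lacks that suffix and read 61.1 and 66.6 against 83.6 and 86.2. Both of its Rictor-null values were lower, with a log2 fold change of -0.34 (SE 0.08, 95% interval -0.51 to -0.16, adjusted p = 0.0218 from limma over all probe sets).

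**Figure D2:**
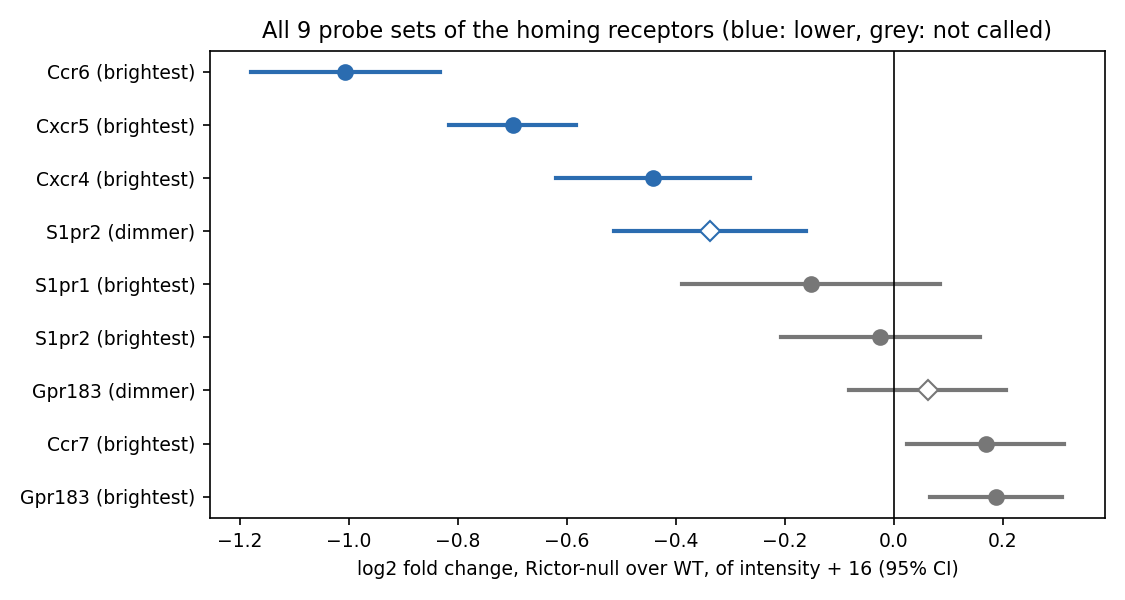
Log2 fold change, Rictor-null over WT, of all 9 probe sets of the 7 receptors, with 95% intervals from a limma fit on all 45037 probe sets and colour for calls at an adjusted p under 0.05 over all probe sets. The intervals of the *S1pr2* probe sets (-0.025 and -0.34) overlap in part, and the brightest *Gpr183* probe set is uncalled here (adjusted p = 0.0558) although it passed when adjusted over genes.

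**Figure D3:**
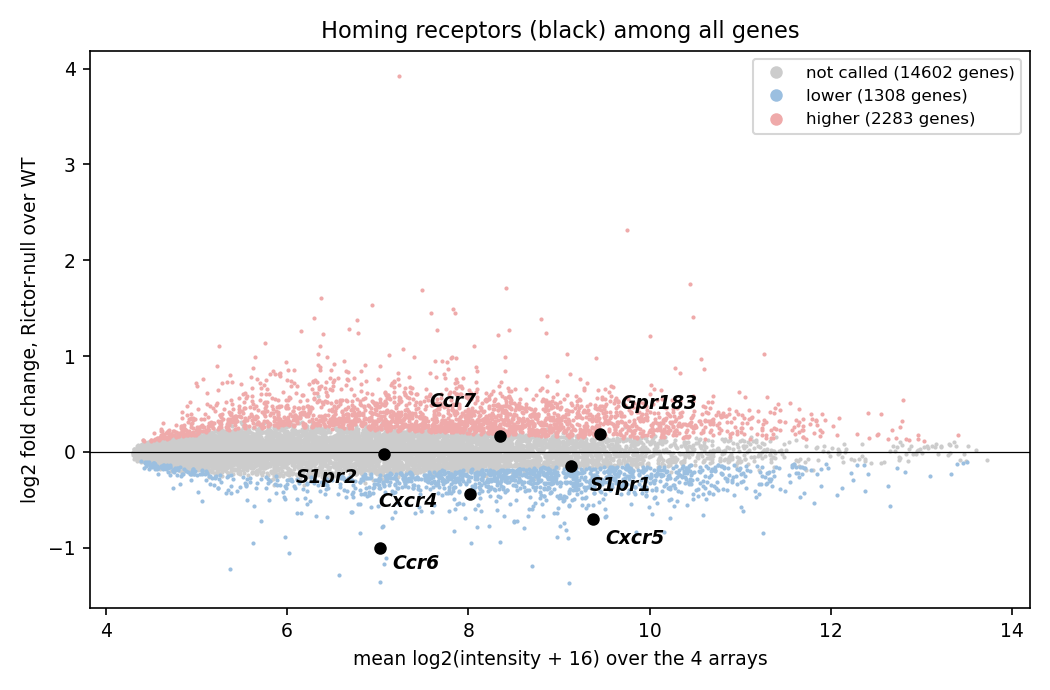
Log2 fold change, Rictor-null over WT, against mean log2(intensity + 16) for the 18193 genes (small points, blue for called lower, red for called higher, grey for not called), with the 7 receptors as labelled black points. *Ccr6* (-1.01) and *Cxcr5* (-0.70) lie at the lower edge of the cloud, *Cxcr4* (-0.44) above them, and the other 4 between -0.15 and 0.19.

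The genes whose levels followed each called receptor most closely were sought over the 4 arrays, as the smallest distance between log2 values after each gene's mean was subtracted, among 6472 genes with a mean intensity of at least 100. Nearest to *Cxcr5* was *Fos*, a subunit of the AP-1 factor, at a distance of 0.046, with intensities of 1194 and 1227 on the Rictor-null arrays and 1951 and 1903 on the WT arrays, followed by the glycosyltransferase gene *B4galnt4* at 0.048. Nearest to *Ccr6* was *Tnfsf11*, which encodes the cytokine RANKL, at a distance of 0.11 (170 and 174 against 351 and 347), and *Il21*, the cytokine of TFH help, at 0.13 (387 and 383 against 746 and 715). Both fell by about as much as *Ccr6* itself, with log2 fold changes of -0.96 and -0.90. *Chd4*, a chromatin remodeler, was nearest to *Cxcr4* at 0.051, with *Preb* next at 0.061. *Cnih4* at 0.012 and *Abce1* at 0.014 were nearest to *Gpr183*. With 4 arrays in 2 groups, genes of like fold change and spread come out nearest by construction.

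A further list held chemokine ligands of these receptors and genes that make, degrade or carry their lipid ligands. None of 14 measured members was called by limma, beside 7.19% of all genes called lower and 12.5% called higher. Before adjustment 0 of the 14 had a limma p under 0.05, beside 5457 of all 18193 genes. A mean intensity under the array-wide median was seen in 7 of the 14. *Cxcl13*, the CXCR5 ligand, read 26.3 and 21.5 on the Rictor-null arrays and 20.0 and 19.7 on the WT arrays (log2 fold change 0.15, adjusted p = 0.207 from limma). *Ccl20*, the CCR6 ligand, read 17.1 and 19.8 against 19.1 and 22.7 (-0.10, adjusted p = 0.446 from limma), with overlapping groups. *Sphk2* and *Sgpl1*, which make and degrade S1P, had log2 fold changes of -0.16 and -0.11, and the S1P exporter *Spns2* 0.11. The methods' t-test called 1 member lower and 0 higher before adjustment. Ccl19 and Ccl21a, the CCR7 ligands, were not analysed here.

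Among 37 genes that carry the receptors' signal, 20 were called lower (54.1%) and 5 higher (13.5%), beside 7.19% and 12.5% of all genes. The share of higher calls is thus near the background, and the median of the 37 genes was -0.14 on the log2 scale. *Gnai2*, an inhibitory G protein subunit through which chemokine receptors signal, fell from 1861 and 1838 on the WT arrays to 1395 and 1372 on the Rictor-null arrays (-0.41, adjusted p = 2.95e-05 from limma). Another such subunit gene, *Gnai3*, was called higher, from 835 and 860 in WT to 912 and 983 in Rictor-null (0.16, adjusted p = 0.0484 from limma). *Gna13*, the subunit used by S1PR2, fell from 1546 and 1442 to 1095 and 1129 (-0.42, adjusted p = 6.55e-05 from limma). *Arhgef1*, the RhoA exchange factor that acts after it, fell from 795 and 760 to 609 and 631 (-0.32, adjusted p = 0.000646 from limma). A negative regulator of G protein signaling fell with them, since *Rgs10* was 999 and 958 in Rictor-null and 1439 and 1357 in WT (-0.51, adjusted p = 1.87e-05 from limma). The called rises with the smallest p were 2 parts of PI3Kγ, the kinase activated by G protein βγ subunits. *Pik3r5*, a regulatory subunit, was 288 and 288 against 168 and 159 (0.76, adjusted p = 5.79e-06 from limma). *Pik3cg*, its catalytic subunit, was 270 and 250 against 163 and 162 (0.63, adjusted p = 3.40e-05 from limma). *Pik3r6*, another regulatory subunit, was not called (-0.08, adjusted p = 0.598 from limma). The count of lower calls fell when either WT array was left out, as did that over all genes. It was 10 when the probe sets of a gene were averaged, and 842 of all genes were then called lower.

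Of 19 transcription factors and surface regulators known to act on the receptor genes, 12 were called lower and 3 higher, beside 7.19% and 12.5% of all genes, with a median of -0.28, and the share of higher calls is near the background. *Bcl6*, the TFH lineage factor, was 208 and 231 on the Rictor-null arrays and 467 and 408 on the WT arrays (-0.94, adjusted p = 4.44e-06 from limma). *Tox2* and *Maf*, which act with it in TFH cells, fell by 0.85 and 0.84 on the log2 scale (adjusted p = 1.11e-07 and 4.70e-07 from limma). *Foxo1*, which drives *Klf2*, *Ccr7* and *S1pr1* in resting T cells, was 350 and 336 against 559 and 548 (-0.67, adjusted p = 5.28e-06 from limma), and *Klf2* itself was 1208 and 1167 against 1383 and 1337 (-0.19, adjusted p = 0.00879 from limma). *Ccr7* (0.17) and *S1pr1* (-0.15) did not pass the test, and the part of *Foxo1* or *Klf2* in their levels was not tested. *Id2*, an inhibitor of E-box factors, rose from 1738 and 1714 in WT to 2567 and 2565 (0.57, adjusted p = 2.25e-06 from limma), and the other rises were *Prdm1* (0.46), which encodes the Bcl6 antagonist Blimp-1, and *Batf* (0.15). *Cd69*, whose product removes S1PR1 from the surface, was 583 and 547 against 620 and 606 (-0.11, adjusted p = 0.167 from limma). Fewer of the 19 were called lower when either WT array was left out, as were fewer of all genes.

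**Figure D4:**
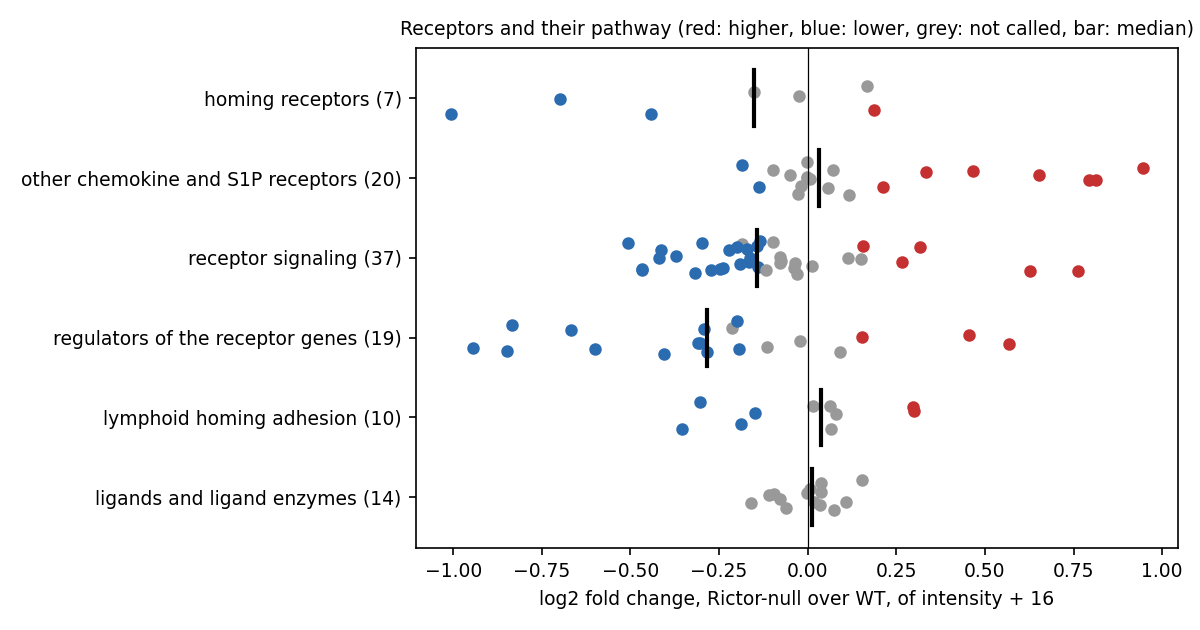
Log2 fold change, Rictor-null over WT, of each measured gene (points, coloured by call at an adjusted p under 0.05) in the receptors and the lists around them, with a bar at each list's median. Medians are -0.15 for the 7 receptors, -0.14 for 37 signaling genes and -0.28 for 19 regulators, and 0 of 14 ligand and enzyme genes is coloured as called.

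The other chemokine and S1P receptors on the array, atypical receptors included, form a list of 20 genes. Of these, 7 were called higher, 2 lower and 11 neither, beside 12.5% and 7.19% of all genes called higher and lower, so that the lower calls are near the background. The median was 0.03, with 10 of them below the median of all probe sets. *Cx3cr1*, found on cytotoxic effector cells, was 274 and 274 on the Rictor-null arrays and 137 and 132 on the WT arrays (0.95, adjusted p = 1.28e-06 from limma). *Ccr2*, a receptor for inflammatory monocyte chemokines, was 572 and 631 against 332 and 347 (0.79, adjusted p = 3.33e-06 from limma). *S1pr5*, the S1P receptor of NK and effector T cells, was 59.3 and 57.1 against 29.0 and 23.6 (0.81, adjusted p = 4.79e-05 from limma), so that within the S1P receptors this gene was called higher while *S1pr1* and the brightest probe set of *S1pr2* were not called. *Ccrl2* (0.47) and *Ccr9* (0.33) also rose, both dim. The 2 called lower were *Cxcr3* (-0.19, adjusted p = 0.0493 from limma) and *Ccr4* (-0.14, adjusted p = 0.0369 from limma), the latter at 7.58 to 10.5 and near background, and neither call held when all probe sets were tested together. The count of higher calls fell when either WT array was left out, as did that over all genes.

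Of 10 adhesion genes of lymphoid homing, 2 were called higher and 4 lower (median 0.04), beside 12.5% and 7.19% of all genes, so that the higher calls are near the background. *Itgal* and *Itgb2*, the chains of the integrin LFA-1, fell by 0.35 and 0.30 (adjusted p = 6.51e-05 and 0.000336 from limma), and *Cd44* by 0.19. *Selplg*, the selectin ligand PSGL-1, and *Icam2*, an LFA-1 ligand, rose by 0.30 each (adjusted p = 0.000669 and 0.00531 from limma).

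The make-up of the sorted cells was read from marker lists, beside 7.19% of all genes called lower and 12.5% called higher. *Cd3e* and *Cd4* were well above the median of all probe sets on every array, and 8 of 10 T cell markers were called lower in Rictor-null (median -0.27), among them *Cd5* (-0.47), *Cd6* (-0.45), *Cd3e* (-0.32) and *Cd4* (-0.26). The other 2, *Cd3d* (0.01) and *Cd3g* (0.04), were not called. *Cxcr5* and *Ccr6* fell by more than any of these markers, while the fall of *Cxcr4* was close to those of *Cd5* and *Cd6*, and their part in the receptor results was not tested. Of 12 TFH markers, which include *Cxcr5*, 7 were lower (58.3%) and 1 higher (8.33%), so that the higher share is near the background. Of 17 B cell markers 13 had means under the array-wide median, with *Cd79a* at 8.86 to 11.7 and *Ms4a1* at 7.91 to 9.26 at background, while their summed intensity of 682 to 690 in Rictor-null and 929 to 933 in WT was mostly *Cd22* (393 and 392 against 704 and 703). B cells, which carry *Cxcr5*, *Ccr6*, *Ccr7*, *S1pr2* and *Gpr183* themselves, were thus not seen through *Cd79a* and *Ms4a1* on any array. However, *Cd79b*, *Pax5*, *H2-Aa* and *H2-Ab1* were called higher in Rictor-null at 12.2 to 64.3 in the group means. The immunoglobulin gene *Ighm*, listed with the plasma cell markers, was bright on every array and not called (2750 and 2864 in Rictor-null, 2782 and 2754 in WT). Which cells its signal came from was not tested.

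Other markers moved with the genotype, and their part in the receptor results was not tested. Over all genes, 12.5% were called higher and 7.19% lower. Of 15 myeloid markers 7 were higher (46.7%) and 0 lower. Their summed intensity was 1382 to 1518 in Rictor-null and 944 to 999.7 in WT, with *Lyz2* at 113 and 102 against 58.1 and 54.7. The plasma cell gene *Jchain* was 378 and 353 against 126 and 113, with 2 of 8 plasma cell markers higher and 2 lower (25% each). Of 8 CD8 and NK markers, 3 were higher (37.5%), among them *Nkg7* (0.51) and *Cd8b1* (0.53), and 2 lower (25%). Their summed intensities were 3985 to 4195 in Rictor-null and 2755 to 2975 in WT, while *Cd8a* was equal (0.0035). *Foxp3* stayed at background (7.35 to 10.9), and of 8 regulatory T cell markers 3 were higher (37.5%) and 1 lower (12.5%). Of 9 naive and memory T cell markers, which include *Ccr7* and *Klf2*, 2 were higher (22.2%, *Il7r* 0.53 and *Dapl1* 1.08) and 4 lower (44.4%). The 3 erythroid markers had means over the 4 arrays under the median of all probe sets, with 2 of them called higher, and of 4 sex-linked genes *Xist* was lower (-0.24) while the Y-linked genes were at background on all arrays.

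*Rictor* itself read 267 and 279 on the Rictor-null arrays and 334 and 303 on the WT arrays in its brightest probe set (-0.21, adjusted p = 0.0366 from limma), a call that was lost when all probe sets were tested together (adjusted p = 0.0868 from limma), and its other 4 probe sets lay between -0.03 and 0.11. Which exons these cover was not analysed here, so they do not check the genotype. The arrays had median intensities of 20.0 to 20.4 and correlated at 0.998 within each group and at 0.993 to 0.994 between groups.

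**Figure D5:**
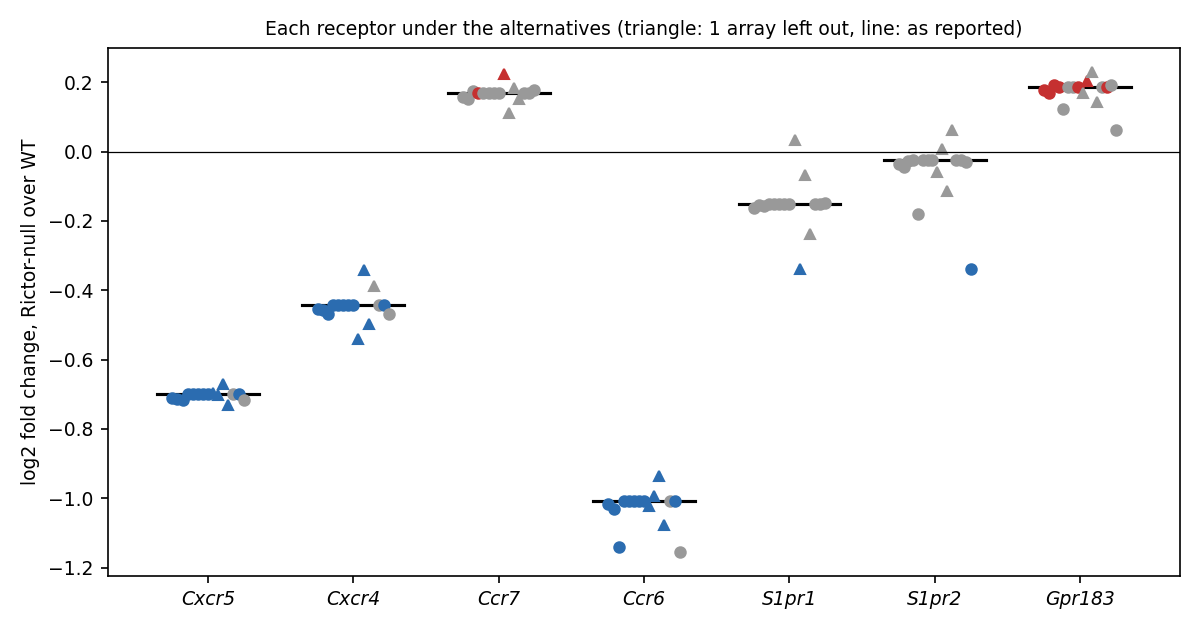
Log2 fold change, Rictor-null over WT, of each of the 7 receptors under every processing alternative, with blue and red for lower and higher calls, grey for values not called and for the untested ratio of linear means, triangles where 1 array was left out and a line at the value as reported. *Cxcr5* (-0.73 to -0.67) and *Ccr6* (-1.15 to -0.94) stay well below 0, *Cxcr4* ranges from -0.54 to -0.34, and *S1pr1* (-0.34 to 0.03) and *S1pr2* (-0.34 to 0.06) span 0.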

How the data were processed

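RNA of sorted TFH cells was hybridised to 4 single-colour arrays, 2 a group. Intensities on a linear scale were deposited, already scaled between arrays by the authors, whose processing notes name MAS5 and RMA without giving a version or role. The platform annotation gave 1 symbol for 34945 of 45037 probe sets, several for 932 and none for 9160, and Entrez numbers matched RefSeq (GRCm38.p6) for 34741 and changed 0 symbols. Intensities became log2(intensity + 16), and the probe set with the highest mean stood for each of 18193 genes, 9010 of which have more than 1. Rictor-null and WT were set against each other in R 4.3.3 by limma 3.58.1 (eBayes with a trend after lmFit, two-sided, Benjamini-Hochberg over all genes, threshold 0.05), a procedure tested on simulated data. With 2 arrays a group, p-values measure only the spread between these pools, and the number of arrays limits the precision.

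The members and gene lists were chosen with earlier results of these data known. Named genes are the 7 receptors, *Rictor*, from each list the 5 or fewer genes of lowest adjusted p, defining markers, and the 2 genes nearest in pattern to each called receptor. *Arhgef1*, *Gnai3*, *Pik3r6*, *Klf2*, *Cd69*, *Prdm1*, *Batf*, *Cxcr3*, *Ccr4*, *Cd3d*, *Cd3g* and *Ighm* were named after their values were seen. A gene with a symbol shared between genes was not used. Alternatives were median centring, quantile normalization, a pseudocount of 1, dim probe sets left out, averaged probe sets, all probe sets tested together, no trend, the replicate number as a block, each array left out, the ratio of linear means and the methods' one-tailed t-test. The dimmer probe set was added after seeing the data.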

Additional observations from a re-analysis of the deposited data

How the results depend on the processing

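*Cxcr5*, *Ccr6* and *Cxcr4* kept their direction in all 15 alternatives and *Gpr183* in all 16. The methods' t-test after adjustment, which has 2 residual degrees of freedom, called 0 receptors lower and 0 higher, 0 signaling genes, regulators or other chemokine and S1P receptors in either direction, and 3 of all genes lower and 3 higher. Before adjustment it called 3 receptors lower and 1 higher and 1 ligand gene lower. It called 2231 of all genes lower and 3143 higher, against 1308 and 2283 by two-sided limma after adjustment. The tail of the t-test was taken from each gene's own direction, so its threshold is more lenient than a two-sided one. The number of receptors called higher was 2 without dim probe sets and 0 with averaged probe sets, with all probe sets together, without the trend and with the dimmer probe set. With averaged probe sets, 10 signaling genes were lower and 3 higher, 1 other receptor was lower, and 842 of all genes were lower. Other receptors called lower numbered 1 without dim probe sets, 0 with all probe sets together and 0 without the trend. Leaving out 1 array in turn gave 2 to 4 receptors lower and 0 to 1 higher, 4 to 16 signaling genes lower and 2 to 5 higher, 6 to 13 regulators lower and 2 to 3 higher, 0 to 1 other receptors lower and 3 to 6 higher, and 457 to 1048 of all genes lower and 930 to 2000 higher. In these fits a group with 1 array is assumed to vary like the other. In the same fits *S1pr1* ranged from -0.34 to 0.033, above 0 without Rictor-null replicate 1, and *S1pr2* from -0.11 to 0.063, above 0 without Rictor-null replicate 2 (0.0088) and WT replicate 2. The cause was not tested. The replicate number gives only 2 pairs, whose deviations correlated at -0.0954 over all probe sets, so it was not taken to pair the arrays. With the replicate block, 1382 of all genes were lower and 2366 higher, and the receptor counts stayed at 3 and 1. Signal near background limits *Ccr4*, most B cell markers and the 7 of 14 ligand and enzyme genes under the array-wide median.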
